A study of Arabidopsis thaliana with 4 samples.

Results

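The group C and group S1 basic leucine zipper (bZIP) genes of Arabidopsis thaliana were examined for binding by LEC1, with 9 members among 27444 nuclear protein-coding genes. They were chosen by family: bZIP9 (AT5G24800), bZIP10 (AT4G02640), bZIP25 (AT3G54620) and bZIP63 (AT5G28770) make up group C, and bZIP1 (AT5G49450), bZIP2 (AT2G18160), bZIP11 (AT4G34590), bZIP44 (AT1G75390) and bZIP53 (AT3G62420) make up group S1. A peak summit was given to a gene when it lay in the gene or up to 1000 bp outside either end. The data were ChIP-seq peak lists from developing seeds of lec1-4 plants carrying pLEC1:LEC1-FLAG, precipitated with an anti-FLAG antibody, with 2 ChIP replicates and 2 input libraries of the same genotype. The growth temperature was 22°C, under days of 16 h light and 8 h dark. The labels give a mature seed stage, and the series title speaks of embryo expansion. All groups carried the lec1-4 mutation and the transgene, which the LEC1 promoter drives, and no precipitation from plants without the tag was among the samples, so antibody background and LEC1-FLAG binding cannot be told apart at any gene.

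LEC1 is an NF-YB subunit that acts in seeds as a master regulator of embryo development and maturation. Group C and group S1 bZIP proteins bind DNA as pairs, preferably with 1 partner from each group, and act at genes of amino acid and sugar metabolism and of seed maturation. They lie downstream of the SnRK1 kinase, which senses low energy, and sucrose represses translation of the S1 members through small conserved reading frames at the front of their messages. In seeds, bZIP53 pairs with bZIP10 or bZIP25 to activate storage protein genes together with ABI3.

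Summits of the FLAG precipitation were called at 1 of the 9 genes in both replicates, bZIP11. In replicate 1 alone, bZIP25, bZIP63, bZIP1, bZIP2 and bZIP53 also had summits, all with lower folds than the strong bZIP11 summit. bZIP9, bZIP10 and bZIP44 had none in either list. By group, 2 of 4 group C genes and 4 of 5 group S1 genes had a replicate 1 summit, a difference that was not tested.

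The counts were set against the whole genome and lay near it or were too small to read. Replicate 1 had a summit at 6 of the 9 members, and 48.2% of all nuclear protein-coding genes had one. In replicate 2 it was 1 of 9, against 13.5% of all genes. A summit in both replicates was present at 1 of 9 members against 13.3%, and a paired site, with the summits of the replicates within 150 bp of each other, at 1 of 9 against 12.7%. Members ran from 907 to 2644 bp in length, with a median of 1370 bp against 2078 bp over all genes. Among the 14641 genes in that range of lengths, 47.9% had a replicate 1 summit and 12.8% a paired site. These counts do not set the family apart from other genes, and no test was made on a list of 9.

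**Figure D1:**
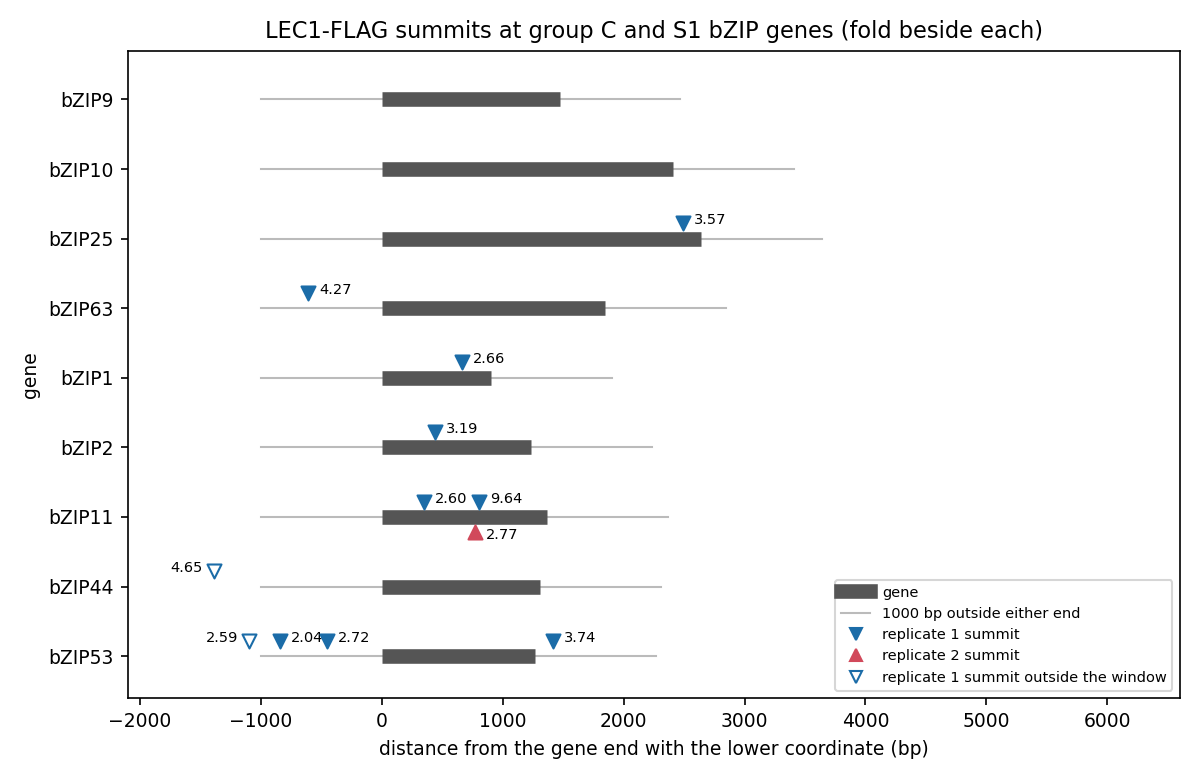
Map of the summits at the 9 genes, drawn from the gene end with the lower coordinate; dark bars are the genes, thin lines reach 1000 bp beyond either end, downward triangles are replicate 1 summits, the upward triangle is the replicate 2 summit, open triangles lie outside the window, and the number beside each is its fold. Both replicates meet only inside bZIP11, and bZIP9 and bZIP10 have no summit in the range drawn.

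bZIP11 encodes an S1 factor that reprograms amino acid and trehalose metabolism and is under strong translational control by sucrose. Its replicate 1 peak spanned chr4:16522118-16523063 (TAIR10) and held a pair of summits, both inside the gene. The main summit, at position 16522667, lay 563 bp from the nearer gene end and had a pileup of 88 extended fragments. Pileup is the authors' count of ChIP fragments over the summit. Fold is the authors' ratio of that pileup to the background set there in peak calling, with 1 added to both. The local background with the added 1 was 9.23 fragments there and the fold 9.64 (95% Poisson interval of the pileup, 7.76 to 11.9).

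In replicate 2 the bZIP11 peak was shorter, chr4:16522506-16522721, and its single summit at position 16522629 lay 38 bp from the main summit of replicate 1. It had a pileup of 25, a background with the added 1 of 9.38 and a fold of 2.77 (1.83 to 4.04). The replicates thus placed the site at nearly the same point but gave it different heights: the backgrounds were close and the pileups were 88 and 25, and the intervals of the folds did not overlap. The second replicate 1 summit, at position 16522206 and 345 bp inside the other gene end, had a pileup of 26 and a fold of 2.60 (1.73 to 3.76). No replicate 2 summit lay within 150 bp of it, the nearest being 423 bp away at the main site.

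Within its own list the bZIP11 site was strong in replicate 1 and, by fold, weak in replicate 2. Its replicate 2 pileup of 25 lay near that list's median of 24 (middle 50%, 20 to 31). The background there was above the middle 50% of that list. The fold of bZIP11 stood above or level with 88.2% of the strongest folds of the 13227 genes with a replicate 1 summit. In replicate 2 it stood above or level with 20.1% of those of the 3716 genes with a summit. The −log10 q was 55.6 in replicate 1 and 3.75 in replicate 2, so a stricter threshold of 5 on that scale left 0 members with a replicate 2 summit, against 7.70% of all genes, and 0 with a paired site, against 7.37%. The site was also lost when only gene ends were counted, from 1000 bp outside to 200 bp inside, since it lies deeper in the gene: 0 members then had a paired site, against 11.1% of all genes. The ratio of the replicate 2 fold to the replicate 1 fold was 0.287, below the median of 0.408 (middle 50%, 0.328 to 0.534) over the 3491 genes with a paired site. That ratio was at the 12.9th percentile of those genes. The genes whose pair of log2 folds lay nearest to that of bZIP11, by straight-line distance over the 2 replicates, were AT2G25625 (9.48 and 2.78), EDA8 (AT4G00310, 9.57 and 2.82) and AT3G50690 (9.72 and 2.72).

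**Figure D2:**
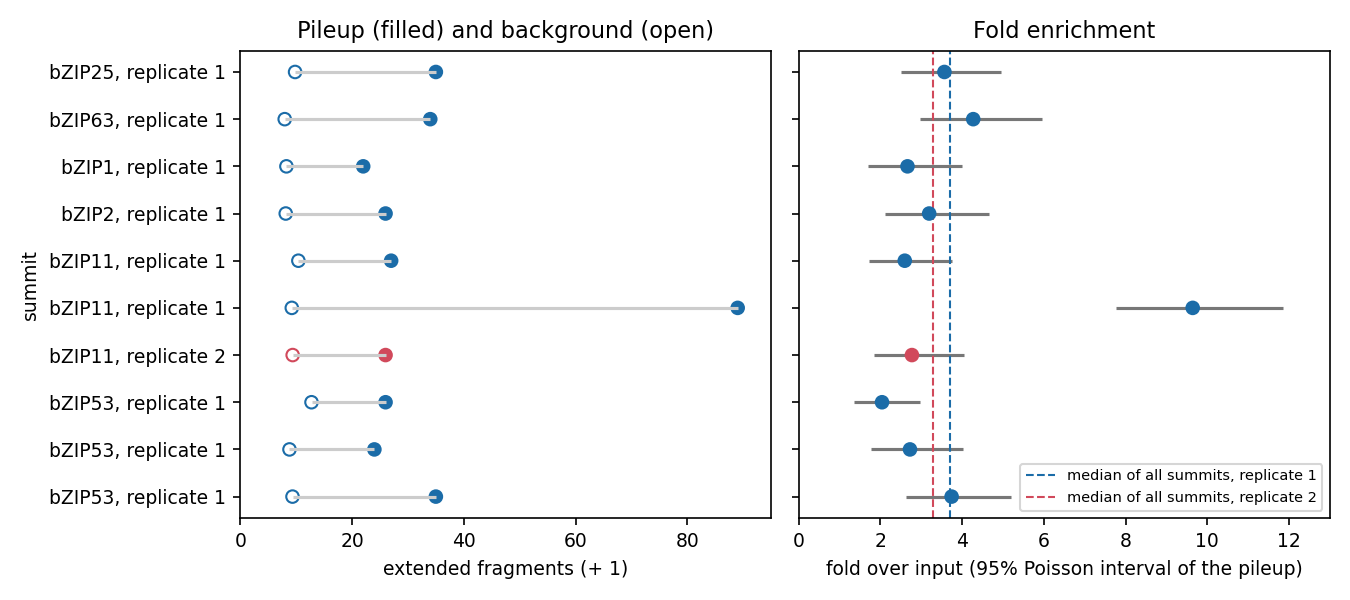
Left, pileup plus 1 (filled) and background plus 1 (open) in extended fragments at each of the 10 summits in the windows, with replicate 1 in blue and replicate 2 in red. Right, fold with the 95% Poisson interval of the pileup, and dashed lines at the median of all nuclear summits of each list (3.70 and 3.29). The main bZIP11 summit of replicate 1 stands apart through its pileup of 88, while the backgrounds plus 1 run only from 7.96 to 12.8.

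The other S1 genes with signal had it in replicate 1 only. bZIP53, the S1 partner of bZIP10 and bZIP25 at storage protein genes, had 3 summits in its window, a number that 5.37% of all genes reached or passed. None lay in bZIP53 itself. The strongest, at position 23093003 of chromosome 3, lay 153 bp outside the gene, in the gap towards AT3G62430, with a pileup of 34 and a fold of 3.74 (2.62 to 5.19).

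On the other side of bZIP53, the summit at position 23091133 lay 453 bp outside the gene and inside its neighbour CP12-2 (AT3G62410), a gene for a small protein that regulates the Calvin cycle. It had a pileup of 23 and a fold of 2.72 (1.77 to 4.03). The third summit, at position 23090746 and 840 bp outside, lay in the next gene, AT3G62400, with a pileup of 25 and a fold of 2.04 (1.35 to 2.97). The local background with the added 1 was 12.8 fragments at the AT3G62400 summit, the highest among the member summits. Both of these summits also counted for AT3G62400 and CP12-2, and the strongest bZIP53 summit also counted for AT3G62430. A further summit of the same peak, at position 23090487 with a fold of 2.59, lay 1099 bp from bZIP53 and so just outside the window. The nearest replicate 2 summit was 47222 bp from the gene.

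bZIP2, a close relative of bZIP11, had 1 replicate 1 summit inside the gene, at position 7898450 of chromosome 2 and 438 bp from the nearer end. The pileup was 25 and the fold 3.19 (2.11 to 4.65). A stronger replicate 1 summit lay beyond the window, at position 7901414 and 2172 bp outside bZIP2, with a pileup of 33 and a fold of 4.27. bZIP1, a factor of the response to low energy and to darkness, likewise had 1 summit inside the gene, at position 20052493 of chromosome 5 and 242 bp from the nearer end. Its pileup of 21 was the lowest among the member summits, with a fold of 2.66 (1.69 to 4.01). The nearest replicate 2 summits lay 11102 bp outside bZIP2 and 3943 bp outside bZIP1, so neither was met a second time.

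bZIP44, an S1 factor linked to seed germination, had no summit in its window. The closest, in replicate 1, lay 1392 bp outside the gene at position 28290306 of chromosome 1, with a pileup of 37 and a fold of 4.65 (3.31 to 6.36). It was left out by the distance alone, and its fold was above those of 5 of the 6 members with a replicate 1 summit. In replicate 2 the nearest summit was 9627 bp away.

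Among the group C genes, bZIP63 had the highest fold. This factor is phosphorylated by SnRK1 and serves in the starvation response. Its summit, at position 10795849 of chromosome 5, lay 608 bp outside the gene, with no other protein-coding gene within 1000 bp. The pileup was 33 and the fold 4.27 (2.98 to 5.95). A further replicate 1 summit, at position 10800478 and 2173 bp outside the gene, beyond the window, had a fold of 4.15. The background with the added 1 was 7.96 at both, and also at position 7901414 of chromosome 2. It was thus not a value of that place alone. The nearest replicate 2 summit was 182515 bp from the gene, the longest such distance among the members.

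bZIP25, which takes part with bZIP53 in the control of storage protein genes, had a replicate 1 summit at position 20220344 of chromosome 3. It lay inside the gene, 153 bp from the end that faces AT3G54630, and counted for that neighbour as well. The pileup was 34 and the fold 3.57 (2.50 to 4.94). bZIP10, the other group C partner of bZIP53 and a factor in the control of cell death with LSD1, had its nearest replicate 1 summit 2356 bp outside the gene and its nearest replicate 2 summit 63783 bp away. bZIP9, known for activity in the phloem, had the nearest summits at 6215 bp in replicate 1 and 6227 bp in replicate 2. Signal at bZIP9 and bZIP10 was therefore below what either list called, which does not show that LEC1-FLAG is absent there.

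Ordered by the strongest fold in replicate 1, the members ran from bZIP11 (9.64) to bZIP63 (4.27), bZIP53 (3.74), bZIP25 (3.57), bZIP2 (3.19) and bZIP1 (2.66). The interval of bZIP11 lay above all others. Those of the other 5 genes overlapped one another, so their order was within counting error of single pileups. Over the 13227 genes with a replicate 1 summit the median strongest fold was 4.29 (middle 50%, 3.09 to 6.76), and 5 of the 6 members were below that median. Counted only at gene ends, replicate 1 had 3 members against 42.4% of all genes. At −log10 q of at least 5 it had 5 members against 38.6%, and at 10 it had 2, bZIP63 and bZIP11, against 27.7%. Windows of 500 and 2000 bp gave 5 and 7 members, against 40.9% and 58.3%. With 1 library behind each of these values there is no spread between replicates to set beside them.

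Of the 9 replicate 1 summits, 5 lay inside a member gene and 4 outside. Over all genes, 41.6% of the 20121 combinations of a gene and a replicate 1 summit had the summit inside the gene. The interior summits belonged to bZIP25, bZIP1, bZIP2 and bZIP11. The outside ones belonged to bZIP63 and bZIP53. Strand, exons and the small upstream reading frames of the S1 genes were not placed here, so whether a summit is at the front or the back of a gene is not given.

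The 5 genes seen in replicate 1 only had folds at which replicate 2 rarely has a partner. Among all replicate 1 summits within 10% of the fold of bZIP63, 11.3% of 1831 had a replicate 2 summit within 150 bp, the highest share among these genes. For the strongest bZIP53 summit the share was 7.21%, for bZIP25 5.57%, for bZIP2 3.39% and for bZIP1 1.48%. At the fold of the main bZIP11 summit it was 80.8% of 599. The replicate 2 background had a median of 7.52 with the added 1. Among called summits within 10% of it, the lowest pileup was 15 and the lowest fold 2.19. Over that whole list the lowest fold was 1.39. The replicate 2 signal at these 5 genes was not measured, and why they had no summit there was not tested.

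**Figure D3:**
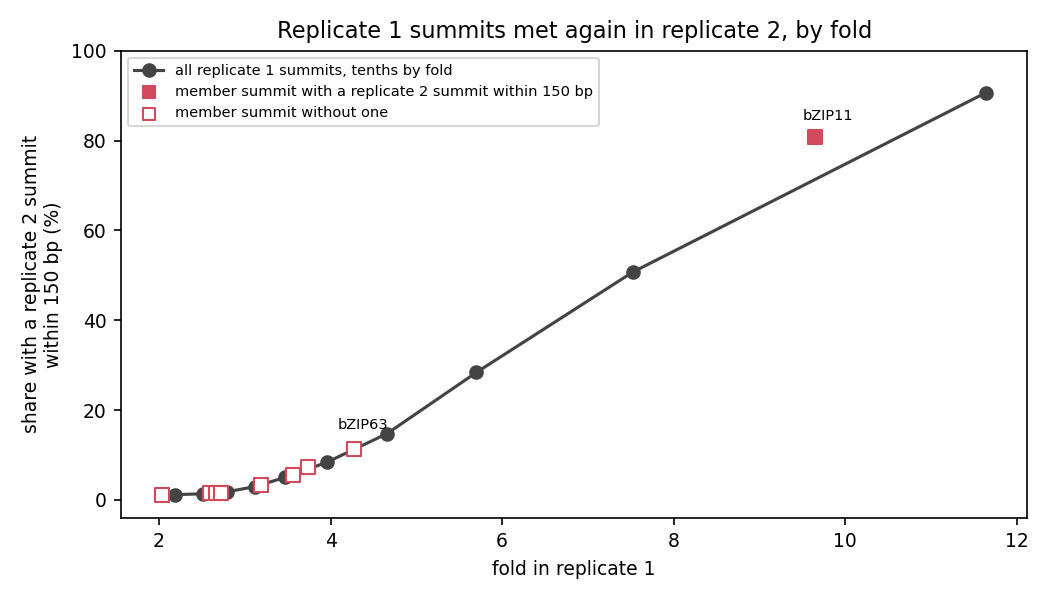
Share of replicate 1 summits with a replicate 2 summit within 150 bp (percent) against their fold in replicate 1; the line joins 10 equal groups of all 15542 summits by fold, each at its median, and squares are the 9 member summits placed at the share of summits within 10% of their fold. The 8 member summits without a partner (open) sit where the share is at most 11.3%, and the bZIP11 summit with a partner (filled) where it is 80.8%.

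Other genes of the pathway were described from 4 further lists. Of the 12 other group S genes, relatives outside S1, 6 had a replicate 1 summit, the strongest at bZIP6 (fold 7.20) and bZIP5 (6.37), and 0 had one in replicate 2. Of the 7 SnRK1 subunit genes 3 had a replicate 1 summit and 1 a paired site, at the γ-type subunit gene KING1 (AT3G48530, 6.70 in replicate 1 and 3.03 in replicate 2). The catalytic subunit gene KIN10 had 3.12 in replicate 1 only, and KIN11 had no summit. For the SnRK1 and the group S genes, the 3 of 7 and 6 of 12 with a replicate 1 summit compare with 48.2% of all genes, and the 1 of 7 and 0 of 12 with a paired site compare with 12.7%.

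Among 15 genes of amino acid, sugar and starvation metabolism that C and S1 factors are known to control, 10 had a replicate 1 summit and 4 a paired site, beside 48.2% and 12.7% of all genes. Nothing particular to the list is read from these counts. ASN1 (AT3G47340), the asparagine synthetase gene that S1 factors activate, had folds of 6.16 and 3.44 at its paired site. TRE1 (AT4G24040), the trehalase gene, had 10.9 and 2.99, and MCCA (AT1G03090), a gene of leucine breakdown, had 2.79 and 2.86. ProDH1 (AT3G30775), the proline dehydrogenase gene, had a summit of fold 2.60 in replicate 1 only.

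The seed maturation genes that bZIP53, bZIP10 and bZIP25 activate had paired sites at 8 of 10, against 1 of 9 at the genes of the factors themselves and 12.7% of all genes. Ranked by the lower fold of each pair, the leading genes were CRA1 (AT5G44120), which encodes a cruciferin and had folds of 12.3 and 7.62, then SESA5 (AT5G54740), a 2S albumin gene with 14.6 and 4.90, and CRB (AT1G03880), another cruciferin gene, with 4.90 and 4.86. No paired site was present at bZIP53, bZIP10 or bZIP25. This list was drawn up with the high share of storage protein genes already known, so its count is a description and supports no direction.

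**Figure D4:**
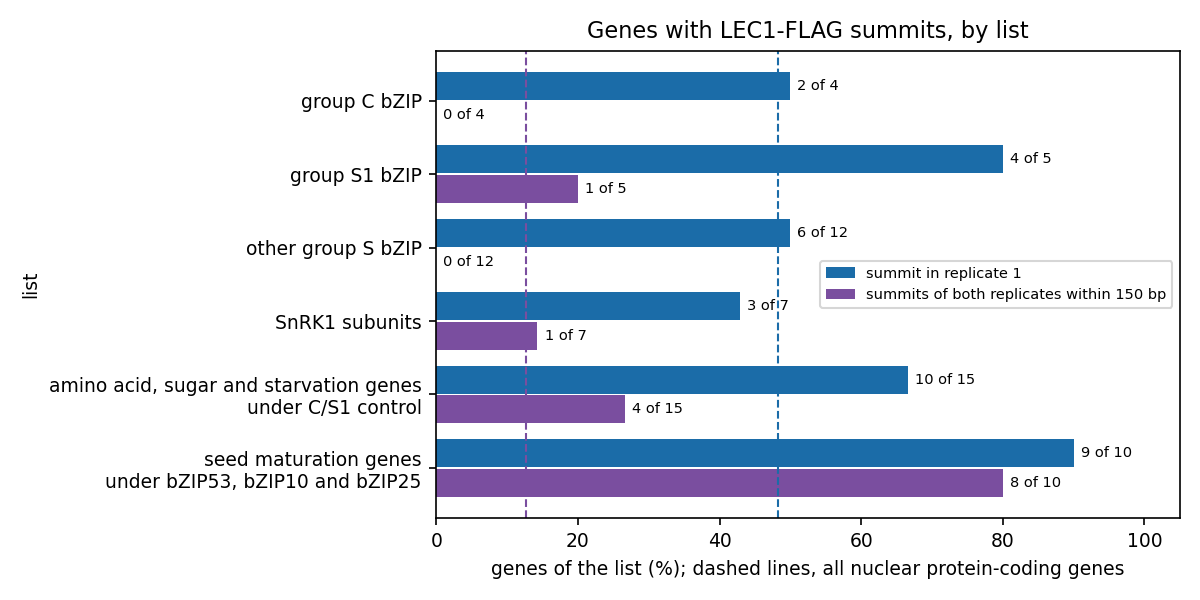
Percent of genes in each list with a replicate 1 summit (blue) and with summits of both replicates within 150 bp (purple), in the gene or 1000 bp outside, with counts beside the bars and dashed lines at the shares of all nuclear protein-coding genes (48.2% and 12.7%). Seed maturation genes reach 8 of 10 for paired sites, and the group C genes and the other group S genes have 0.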

How the data were processed

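Each replicate's ChIP library was compared with its matching input by MACS 2.1.0.20150420 at a q threshold of 0.05, per the file headers, and replicates were not pooled. Extension was 187 bp in replicate 1 and 149 bp in replicate 2. Replicate 1 rested on 4454133 ChIP and 7578894 input tags, and replicate 2 on 4493099 and 9646586. Replicate 1 held 15542 nuclear summits and replicate 2 held 3777. The submitters' processing notes name BWA 0.7.12 and TAIR10. The pileup signal, the fold ratio, the −log10 p-value and the −log10 q-value deposited by the authors are each summit's own values. Background was computed as (pileup + 1) / fold.

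Gene names and windows came from a RefSeq table of assembly TAIR10.1, which matched all 53 genes of the lists by locus. Summits were most often within 200 bp of a gene end with no shift of coordinates, on each of the 5 chromosomes in both lists. That table gives no strand or exons, and no sequence was used here. Intervals are exact Poisson intervals of the pileup, cover counting error only and take the background as exact. With 1 peak list per replicate and no other ChIP group, no test between groups was made. Members and lists were chosen with earlier results of these data known. Named were all members, up to 3 genes per list by the smaller fold at a paired site, genes that share a member's summit, and the 3 genes nearest to bZIP11 in fold. KIN10, KIN11, ProDH1, bZIP5 and bZIP6 were added after their values were seen. Assignment was tested on simulated summits at isolated genes, with a single site each. Summits shared by close genes were not part of that test. Python 3.11.15, numpy 2.4.6, pandas 2.3.3 and scipy 1.17.1 were used.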

Additional observations from a re-analysis of the deposited data

How the results depend on the processing

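Of 31 counts of members under other settings, 18 stayed within 1.5 times the reported count. The 29 folds under other settings are the deposited values of the same summits, so they say nothing about stability, and a setting that lost a member's summits gave no fold. bZIP11 was the member with a paired site under windows of 500 bp (9.91% of all genes) and 2000 bp (17.3%). That also held with each summit given to its nearest gene (8.88%) and with summits within 50 bp (8.79%) or 300 bp (13.1%). With peaks sharing 50% of the shorter one it held as well (12.9%). A count of 1 of 9 is too small to read against these shares. Restricted to gene ends (1000 bp outside to 200 bp inside), replicate 1 had 3 members (bZIP25, bZIP63 and bZIP53; 42.4% of all genes), and replicate 2, both replicates and paired sites had 0, since the bZIP11 summits are deeper in the gene. At −log10 q of at least 5, replicate 1 had 5 members (38.6% of all genes). Replicate 2, both replicates and paired sites had 0 there, against 7.70%, 7.57% and 7.37% of all genes. At 10, replicate 1 had 2 members (bZIP63 and bZIP11; 27.7% of all genes) and the other counts were 0, where only 2.98% of all genes had a replicate 2 summit, 2.95% had one in both replicates and 2.92% had a paired site. With 1 replicate left out, the counts for both replicates and for paired sites are by construction those of the remaining list. They were 1 without replicate 1 and 6 without replicate 2. These counts are among the 31 and say nothing about stability. No paired analysis was possible because no result comes from a test between groups. Replicate 2 held 3777 nuclear summits against 15542 in replicate 1, from 4493099 and 4454133 ChIP tags. Why 5 members had a summit in replicate 1 only was not tested.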
